A study of Rattus norvegicus with 16 samples.

Results

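The 42 genes described here encode complement components, coagulation and fibrinolysis factors, and the inhibitors that hold these cascades in check. They were taken by gene name from a count table of 32623 gene records, and the list was chosen with earlier results of these data known. They occupy 43 of those records because Cfb is listed at 2 positions on chromosome 20 (4536203 and 4536212). RNA was measured in 2 tissues, liver and bone marrow, after rats had received N-nitrosodiethylamine (NDEA), a nitrosamine that liver enzymes turn into a DNA-ethylating agent. There were 4 groups of 4 libraries: control liver, NDEA liver, control marrow and NDEA marrow. All animals, controls included, were female Big Blue rats, a transgenic strain in which a vector with the cII and lacI reporter genes serves as a target for mutation counting. They were 6 weeks old on arrival, had 1 week to acclimate, were kept 3 to a cage, and received 0 or 10 mg/kg/day by gavage over 28 days, with tissue taken 3 days after the last dose. The protocol gives 6 rats per dose group. Nothing in the labels ties a library to a particular rat, so the p-values below measure the spread between these libraries. Libraries were made with a kit that reads a short tag at the 3' end of each mRNA, so counts do not grow with transcript length. Levels of different genes can be set side by side only where the gene models cover the 3' ends in use, which was not tested.

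Complement is a chain of plasma proteases that starts from antibody complexes, from sugar-binding lectins or from spontaneous activation, converges on cleavage of C3 and ends in a pore built from the terminal components. Coagulation is another chain of plasma proteases, in which tissue injury or contact with a charged surface leads to thrombin, and thrombin turns fibrinogen into fibrin; plasmin later dissolves the clot. Hepatocytes secrete most of these proteins, several after a vitamin K-dependent modification, while some complement components are also made by macrophages, adipocytes and stromal cells.

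Liver libraries held 5000844 to 6863592 counts and marrow libraries 2162182 to 5705705. The tissue labels matched their defining markers: Alb, the albumin gene, stood at 67796 to 90059 CPM (counts scaled to a common library total, here of all counts) in liver and at most 0.439 in marrow. Mpo, a neutrophil granule gene, had no count in any liver library and reached 395 to 606 CPM in marrow. Elsewhere in the text, CPM are scaled by trimmed means of M values over the genes tested in that tissue.

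Liver expressed nearly the whole set. Of the 42 members, 36 passed the filter on low counts in liver, and together the members took 3.76% ± 0.331 of all counts in control liver and 3.26% ± 0.115 after NDEA (SD, n = 4 each). In single libraries that share was 4.00, 3.27, 3.91 and 3.86% in controls 1 to 4, and 3.38, 3.17, 3.33 and 3.15% in NDEA libraries 1 to 4. Control 2 lay below NDEA libraries 1 and 3, so the groups overlapped; control 2 was also the lowest control for 24 of the 36 tested members. Measured levels spanned a wide range, from C3, the hub of complement, at 5701 ± 415 CPM in control liver to Serpinf2, the plasmin inhibitor, at 6.43 ± 3.48. Whether the 3' end of each member was captured was not tested, so a low reading such as that of Serpinf2 may not be a low level. The 6 highest members, C3, Plg, Fgb, Vtn, Serpinc1 and F2, held 56.6% of the summed level. Plg (plasminogen, 4036 ± 1007), Fgb (fibrinogen beta chain, 3959 ± 371) and Vtn (vitronectin, 3360.3 ± 208) followed C3. In this order Plg and Fgb, and Serpinc1 and F2, differed by less than their SDs, while Fgb and Vtn, and Vtn and Serpinc1, differed by more.

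The 6 members that did not pass the filter were C2, C4a, C4b, C7, Cfb and Mbl2. No count at all was found in any liver library for C4a, C7 or Cfb, which over the 8 libraries allows up to 0.0615 CPM by counting error alone. C2 (65 counts), Mbl2 (7 counts) and C4b (3 counts) were found only in traces. C4a and C4b are near-identical copies, and the Cfb records lie 9 bases apart. The sources used here do not say how reads that match more than 1 record were counted, and the levels of these 3 genes are therefore uncertain. For C2, C7 and Mbl2 as well, low expression cannot be told apart from a 3' end that the gene models miss. Col1a2 had 0 counts in every library, while Col1a1, another collagen gene, read 5373, 4010, 2243 and 2809 CPM in marrow controls 1 to 4.

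Promoter sequence is shown for the fibrinogen trio, whose genes lie together and are read against the other members below, and for the 4 members with the largest fall among those called in liver that have a sequence in RefSeq (F7, Kng1, F12 and C8a). Each is the 250 bases before the annotated start, written 5' to 3' on the gene's strand, from RefSeq on build GRCr8. Capitals mark matches, on either strand, to the letters searched. For the hepatocyte factor HNF1 these were GTTAAT. For the FOXA factors, which open liver chromatin, they were TGTTTAC. For C/EBP, a family that drives liver secretory genes, they were TTGCNNAA. For STAT factors, which act below cytokine receptors, they were TTCNNNGAA. For the nuclear receptor HNF4 they were CAAAGTCCA.
Fga (chr2:170671919-170672168, plus strand): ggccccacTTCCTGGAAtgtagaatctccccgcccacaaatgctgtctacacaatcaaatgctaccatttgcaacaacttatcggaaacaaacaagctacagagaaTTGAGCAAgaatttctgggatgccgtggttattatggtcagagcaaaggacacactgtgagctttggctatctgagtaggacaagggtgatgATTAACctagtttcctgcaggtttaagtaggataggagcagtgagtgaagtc
Fgb (chr2:170700876-170701125, minus strand): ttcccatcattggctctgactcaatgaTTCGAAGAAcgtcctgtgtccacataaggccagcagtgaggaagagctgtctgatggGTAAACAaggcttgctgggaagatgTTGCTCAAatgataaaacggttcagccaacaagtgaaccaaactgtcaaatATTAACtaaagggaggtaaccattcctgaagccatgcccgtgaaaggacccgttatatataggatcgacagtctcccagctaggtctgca
Fgg (chr2:170652833-170653082, plus strand): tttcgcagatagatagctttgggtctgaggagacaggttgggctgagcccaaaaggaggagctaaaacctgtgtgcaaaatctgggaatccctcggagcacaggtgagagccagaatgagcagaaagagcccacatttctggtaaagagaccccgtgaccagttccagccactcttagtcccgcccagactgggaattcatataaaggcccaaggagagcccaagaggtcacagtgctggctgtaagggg
F7 (chr16:83202739-83202988, minus strand): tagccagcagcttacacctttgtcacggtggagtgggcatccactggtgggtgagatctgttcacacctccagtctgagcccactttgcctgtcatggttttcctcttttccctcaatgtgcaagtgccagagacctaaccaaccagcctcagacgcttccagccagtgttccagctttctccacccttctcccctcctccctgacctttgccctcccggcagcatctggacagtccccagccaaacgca
Kng1 (chr11:91340149-91340398, minus strand): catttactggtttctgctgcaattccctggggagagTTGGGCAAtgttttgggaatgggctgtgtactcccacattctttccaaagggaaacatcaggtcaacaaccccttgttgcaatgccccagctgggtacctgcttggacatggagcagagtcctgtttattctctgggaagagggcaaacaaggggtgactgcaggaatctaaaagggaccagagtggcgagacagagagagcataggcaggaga
F12 (chr17:9212569-9212818, plus strand): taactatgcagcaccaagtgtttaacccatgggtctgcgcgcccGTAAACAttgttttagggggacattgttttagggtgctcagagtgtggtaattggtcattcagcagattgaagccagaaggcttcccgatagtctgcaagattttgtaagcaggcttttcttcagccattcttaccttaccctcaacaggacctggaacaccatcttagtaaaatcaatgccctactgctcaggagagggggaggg
C8a (chr5:124866632-124866881, minus strand): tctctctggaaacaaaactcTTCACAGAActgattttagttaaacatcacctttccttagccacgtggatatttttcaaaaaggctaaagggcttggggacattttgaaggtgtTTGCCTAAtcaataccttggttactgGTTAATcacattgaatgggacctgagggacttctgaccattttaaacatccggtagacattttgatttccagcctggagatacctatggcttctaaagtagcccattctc

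Such windows were found for 32 of the 42 members. The C/EBP letters occurred in 12 of the 32 (37.5%, against 9.22% of all 33469 promoter windows of that length), the HNF1 letters in 9 (28.1% against 6.45%), the STAT letters in 6 (18.8% against 7.67%) and the FOXA letters in 4 (12.5% against 3.22%). The HNF4 letters occurred in none of the members and in 0.338% of all windows. Of the sequences printed, Fga held matches to HNF1, C/EBP and STAT, Fgb to those 3 and FOXA, and C8a to HNF1, C/EBP and STAT, whereas Fgg and F7 held no match to any of the 5. No 2 matches of different motifs overlapped in the members. HNF1 letters were found in 1 of the 10 windows of members called lower in liver and in 8 of the 19 windows of the other tested members. C/EBP letters were found in 6 of the 10 and in 6 of the 19, STAT letters in 2 and 4, and FOXA letters in 1 and 3. A match is a description of the sequence, and these shares were not tested.

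NDEA liver held lower levels of many members, and no member was called higher. At an adjusted p under 0.05, 13 of the 36 tested members were lower and 0 were higher, where 3.74% of all 9668 tested genes were called lower and 2.87% higher (6.61% in either direction). The 13 were C1r, C1s, C3, C8a, C8g and Serping1 from complement, and F5, F7, F9, F10, F12, Kng1 and Serpinc1 from coagulation. The estimate was below 0 for 33 of the 36 (48.8% of all tested genes), with a median log2 fold change of -0.35 over the members against 0.01 over all tested genes. In 15 members the 4 NDEA libraries all lay below the 4 controls, which held for 5.98% of all tested genes, and in 0 members all lay above them (6.54% of all tested genes). Most falls were modest, and 7 of the 13 (C8a, C8g, F7, F9, F10, F12 and Kng1) were called under each of the 17 alternative analyses. With library totals in place of trimmed means, the median of all genes moved from 0.01 to 0.12, and the share of calls that were higher moved from 43.3% to 62.0%. In that alternative 10 members and 239 of all 9668 tested genes were called lower. Because these are bulk tissue samples, fewer hepatocytes and less RNA per hepatocyte cannot be told apart.

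**Figure D1:**
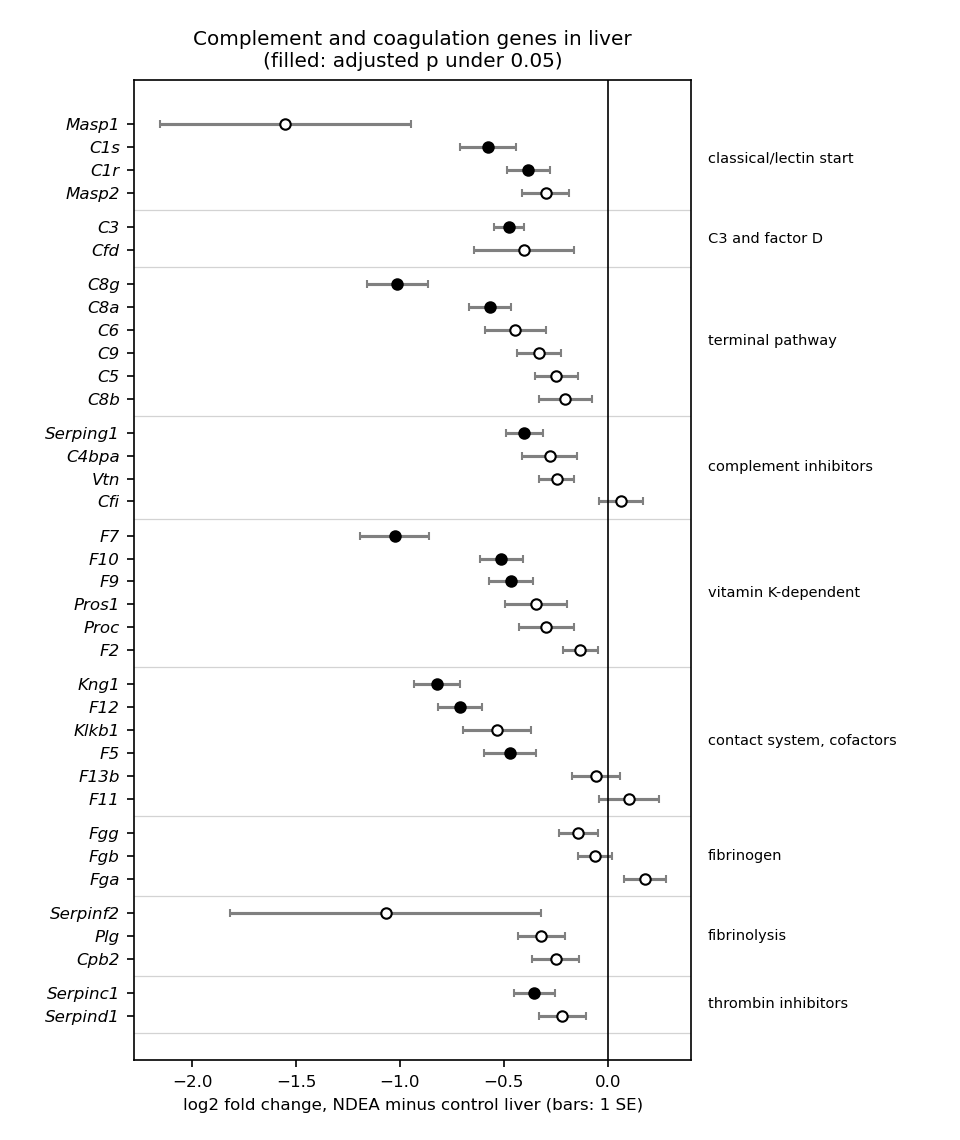
Log2 fold change in liver, NDEA minus control, for the 36 tested members (points) with 1 SE (bars), grouped by role; filled points passed an adjusted p of 0.05. F7, C8g and Kng1 lie farthest left among the filled points, and the 3 fibrinogen chains lie near 0.

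Of the proteases that start the classical and lectin pathways, C1r and C1s fell. C1r, the protease that activates first in the C1 complex, read 607, 582, 726 and 678 CPM in controls 1 to 4 and 462, 477, 493 and 549.8 in NDEA libraries 1 to 4. Every NDEA library lay below every control, with a log2 fold change of -0.38 ± 0.10 (SE; adjusted p = 0.0258, limma-voom). Its partner C1s, which cleaves C4 and C2, read 320.4, 221, 287 and 319 in controls and 199, 163, 213 and 187 after NDEA. The groups did not overlap here either, and the log2 fold change was -0.58 ± 0.14 (adjusted p = 0.00879). C1r and C1s are neighbours, 17.6 kb apart on chromosome 4 in the table's positions. Of the lectin pathway proteases, Masp2 stood at 361 ± 35.0 CPM in controls and 293 ± 21.4 after NDEA (-0.30, adjusted p = 0.130), and Masp1 at 10.3 ± 2.01 and 3.73 ± 2.01 (-1.55 ± 0.60, adjusted p = 0.148). Neither passed the test although their groups did not overlap; the Masp1 estimate is the lowest of all members, from only 337 counts in the 8 libraries. C1r was called in 9 of the 17 alternative analyses. The chains of C1q, which recognises antibody complexes, are no members; C1qa, C1qb and C1qc, made by macrophages, had estimates of 0.20 ± 0.14, 0.02 ± 0.15 and -0.02 ± 0.14 (adjusted p = 0.494, 0.960 and 0.952).

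C3, whose cleavage joins all starting routes, was the most abundant member and fell. Its level was 5775, 5095, 5930.2 and 6002 CPM in controls and 4245, 3912, 4266 and 3943 in NDEA libraries. The groups were well separated, with a log2 fold change of -0.48 ± 0.07 (adjusted p = 0.000133). Cfd, the protease factor D of the alternative pathway, was low in liver at 36.8 ± 4.63 CPM in controls and 28.5 ± 8.00 after NDEA, and the difference did not pass the test (adjusted p = 0.393).

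All 6 tested terminal components had estimates below 0, and 2 of them were called. C8 is built from 3 chains encoded by C8a, C8b and C8g, and C8a and C8g fell. C8g read 703, 501, 714 and 637 CPM in controls and 438, 259, 326 and 258 after NDEA, with no overlap, a log2 fold change of -1.01 ± 0.15 and an adjusted p of 5.89e-05. C8a read 665, 538, 605 and 625 in controls and 409, 436, 405 and 394 after NDEA, again without overlap (-0.57 ± 0.10, adjusted p = 0.000796). C8b, the neighbour of C8a 48.0 kb away on chromosome 5, read 222, 257, 323 and 296 and 261, 224, 227 and 229.8. The C8b groups overlapped and the difference did not pass (-0.21 ± 0.13, adjusted p = 0.415). C5, the first terminal component, C6 and C9, the chain that forms the pore wall, had estimates of -0.25, -0.44 and -0.33 with adjusted p-values of 0.181, 0.0763 and 0.0682. None of those 3 was called.

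Among the complement inhibitors 1 of 4 fell. Serping1 encodes C1 inhibitor, which blocks C1r and C1s and also the contact proteases. It read 1588, 1366, 1568 and 1492 CPM in controls and 1250.4, 1036, 1178 and 1089 after NDEA. All NDEA libraries lay below all controls (-0.40 ± 0.09, adjusted p = 0.00590). Vtn, which keeps the terminal complex out of membranes, and C4bpa, a chain of C4b-binding protein, had estimates of -0.25 and -0.28 that did not pass (adjusted p = 0.0819 and 0.257). Cfi, the protease that degrades C3b and C4b, had an estimate of 0.07 ± 0.11 (adjusted p = 0.797). C1s, C3 and Serping1 were not called when all 16 libraries shared one fit, and were called in the other 16 alternatives.

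All 6 vitamin K-dependent factors had estimates below 0, of which 3 were called lower and 3 did not pass. F7, which with tissue factor starts coagulation, read 174, 121, 194 and 159.7 CPM in controls and 86.8, 83.7, 82.7 and 64.0 after NDEA. All NDEA libraries lay below all controls, with the largest fall of the called members, a log2 fold change of -1.02 ± 0.17 (adjusted p = 0.000227). F10, which makes thrombin from prothrombin, read 1017, 1095, 1271 and 1306 in controls and 915, 863, 757 and 749 after NDEA, also without overlap (-0.51 ± 0.10, adjusted p = 0.00223). F9, the factor lacking in haemophilia B, read 842, 778, 815 and 800.0 in controls and 710.0, 536, 615 and 499.9 after NDEA. Its groups did not overlap, although NDEA 1 came closest to the controls (-0.47 ± 0.11, adjusted p = 0.00733).

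Prothrombin itself, F2, read 2736, 2130.4, 2595 and 2531 CPM in controls and 2427, 2239.9, 2231 and 2197 after NDEA. The groups overlapped through control 2, and the difference did not pass (-0.13 ± 0.08, adjusted p = 0.435). Proc (protein C) and Pros1 (protein S), the anticoagulant members of the family, had estimates of -0.29 and -0.34 (adjusted p = 0.216 and 0.200). F7 and F10 lie 21.0 kb apart on chromosome 16 in the table's positions.

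**Figure D2:**
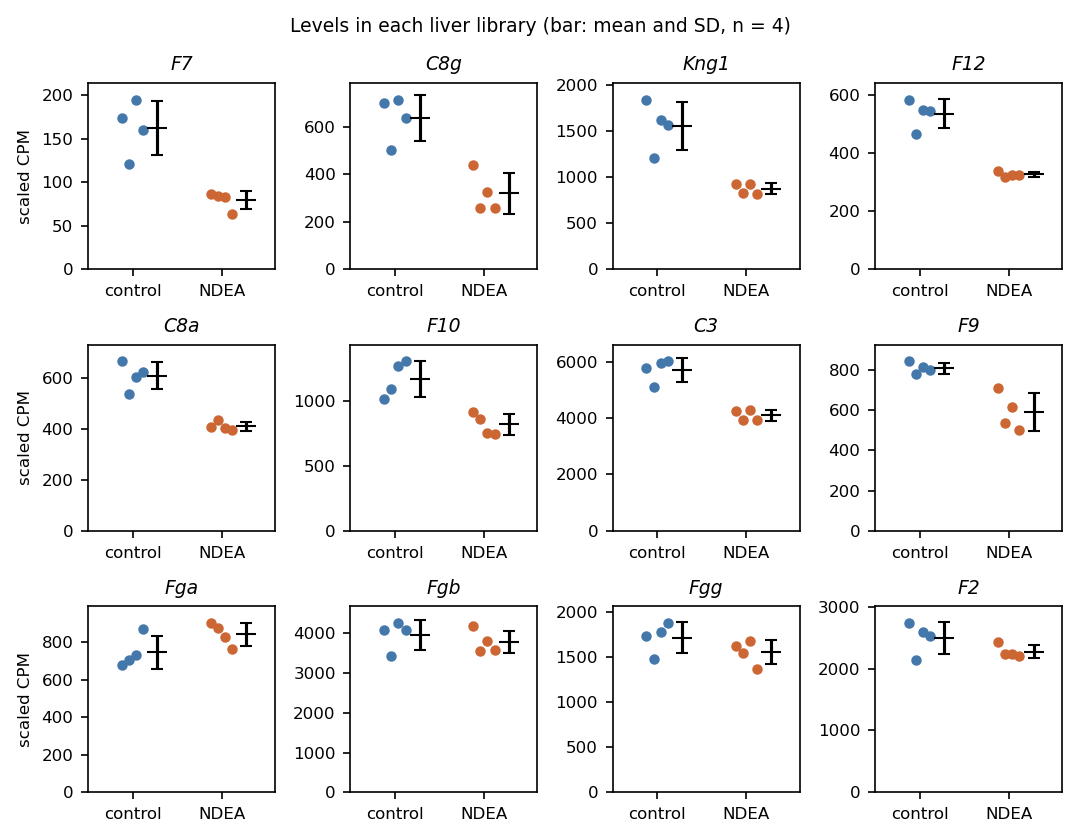
Scaled CPM in each liver library for 12 members, with the control libraries on the left of each panel and NDEA on the right; bars are the mean and SD (n = 4), and each axis starts at 0. F7 runs from 121 to 194 in controls and from 64.0 to 86.8 after NDEA, while the control and NDEA points of Fga, Fgb, Fgg and F2 overlap.

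In the contact system and its cofactors, 3 of 6 members fell. Kng1, high-molecular-weight kininogen and the source of bradykinin, read 1835, 1207, 1614 and 1562 CPM in controls and 925, 822, 922 and 819 after NDEA. No NDEA library reached the lowest control, and the log2 fold change was -0.82 ± 0.11 (adjusted p = 2.10e-05), the smallest adjusted p of the members. The rat has several kininogen genes of similar sequence, so reads may be shared among them. F12, the protease that starts contact activation, read 583, 466, 549.9 and 544 in controls and 338, 317, 326 and 325 after NDEA. The NDEA libraries lay within a narrow band below all controls (-0.71 ± 0.11, adjusted p = 8.57e-05).

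F5, the cofactor that speeds thrombin formation, read 265, 268, 300.4 and 247 CPM in controls and 197, 215, 159 and 216 after NDEA. The groups did not overlap (-0.47 ± 0.13, adjusted p = 0.0237), and it was called in 12 of the 17 alternatives. Klkb1, plasma prekallikrein, missed the threshold, with 132 ± 21.7 CPM in controls, 91.8 ± 20.1 after NDEA and an adjusted p of 0.0551. F11, which lies 27.5 kb from Klkb1 on chromosome 16, had an estimate of 0.10 ± 0.14 (adjusted p = 0.768). F13b, the carrier chain of the fibrin-crosslinking enzyme, had an estimate of -0.06 ± 0.12 (adjusted p = 0.841).

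None of the 3 fibrinogen genes passed the test. They stand next to one another on chromosome 2, with Fgg and Fga 19.0 kb apart and Fga and Fgb 20.9 kb apart in the table's positions. Fga, the alpha chain, read 676, 704, 729 and 872 CPM in controls and 902, 875, 825 and 762 after NDEA. Fgb, the beta chain, read 4079, 3418, 4260.5 and 4078 in controls and 4176, 3567, 3817 and 3585 after NDEA. Fgg, the gamma chain, read 1732, 1477, 1780.5 and 1880.1 in controls and 1629, 1548, 1675 and 1368 after NDEA. In all 3 the groups overlapped, with log2 fold changes of 0.18 ± 0.10, -0.06 ± 0.08 and -0.14 ± 0.09 and adjusted p-values of 0.361, 0.747 and 0.448. With library totals alone the Fgb estimate turned to 0.054.

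The fibrinolysis genes and thrombin inhibitors gave 1 call. Plg, plasminogen, read 5531, 3350.0, 3569 and 3695 CPM in controls and 3401, 3151, 3183 and 2997 after NDEA. Control 1 stood far above the other controls, and NDEA 1 lay above control 2, so the groups overlapped (-0.32 ± 0.11, adjusted p = 0.0964). Cpb2, which protects fibrin from plasmin, had an estimate of -0.25 (adjusted p = 0.226), and Serpinf2 was too low for a precise one (-1.07 ± 0.75, adjusted p = 0.479). Serpinc1, antithrombin, read 3032, 2199.8, 2739.7 and 2579.8 in controls and 2352, 1828, 2141 and 1915 after NDEA. It fell (-0.35 ± 0.10, adjusted p = 0.0293), but its groups overlapped and it was called in only 7 of the 17 alternatives. Serpind1, heparin cofactor II, had an estimate of -0.22 (adjusted p = 0.304).

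Ratios between members within a library do not depend on how libraries are scaled. Of 12 pairs, chosen after the member values were seen, 6 had control and NDEA ratios that did not overlap. Each of these 6 gave p = 0.0286, the smallest that an exact two-sided permutation test over 4 against 4 libraries allows, and 0.0571 after Benjamini-Hochberg adjustment over the 12, which does not pass 0.05. As the pairs were picked on the same values, these p-values only describe the separation and are no test of it. Fga per Fgg count was 0.391, 0.476, 0.410 and 0.464 in controls 1 to 4 and 0.554, 0.565, 0.493 and 0.557 in NDEA libraries 1 to 4. The alpha chain was thus higher against the gamma chain in all NDEA libraries. C8g per C8b count was 3.17, 1.95, 2.21 and 2.15 in controls and 1.68, 1.16, 1.44 and 1.12 after NDEA. Klkb1 per F11 count was 1.51, 1.41, 1.29 and 1.17 in controls and 1.09, 0.778, 0.792 and 0.833 after NDEA. Both were lower in every NDEA library, as were F7 against F10, F9 against F2, and Serpinc1 against F2. C8a per C8b count overlapped between the groups (p = 0.0571 by the same permutation test, 0.0857 adjusted).

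**Figure D3:**
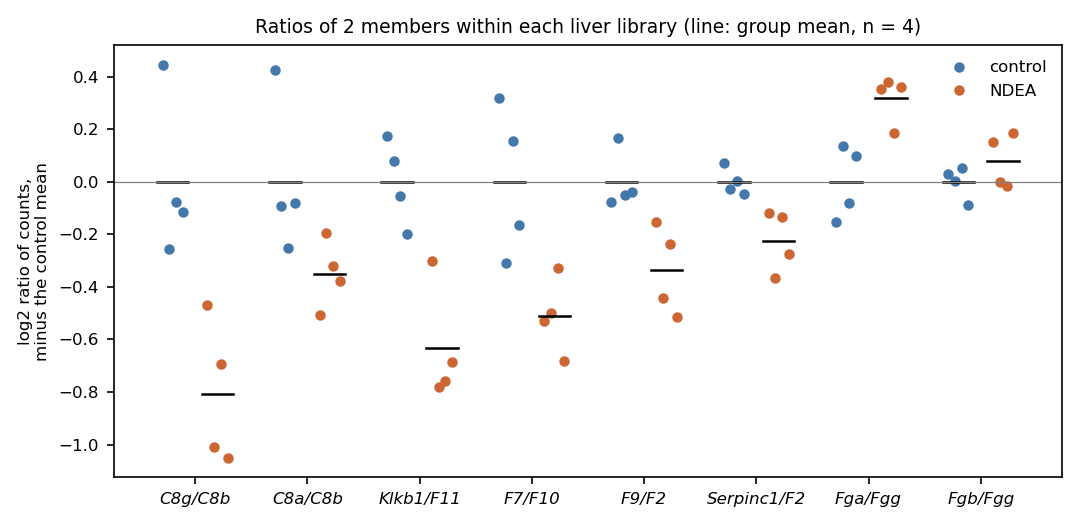
Log2 ratio of the counts of 2 members in each liver library, minus the mean of the controls, for 8 of the 12 pairs; lines are group means (n = 4). Fga/Fgg lies above the controls in all 4 NDEA libraries, and C8g/C8b, Klkb1/F11, F7/F10, F9/F2 and Serpinc1/F2 lie below them.

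Other genes of the same pathways did not move in one direction. Of 73 listed, 65 were matched by name and 41 were tested in liver. Of these 41, 5 were called higher and 8 lower, where 2.87% and 3.74% of all tested genes were. Their median log2 fold change was -0.15. The 5 that rose were Clu (clusterin, which blocks the terminal complex; 0.47 ± 0.08, adjusted p = 0.000637), Cr1l (a membrane regulator of complement; 1.01 ± 0.20, 0.00225), Serpina1 (alpha-1 antitrypsin; 0.31 ± 0.09, 0.0364), and Anxa2 and S100a10. Anxa2 and S100a10 together form a cell-surface binding site for plasminogen, and rose by 1.28 and 1.51 (adjusted p = 0.0120 and 0.00308). Those that fell included Vkorc1, which recycles vitamin K for all the vitamin K-dependent factors, called or not. Its level went from 509.8 ± 69.1 to 259.8 ± 28.8 CPM (-0.97 ± 0.12, adjusted p = 9.44e-06). Ggcx, the carboxylase that uses vitamin K, did not pass (-0.24 ± 0.19, adjusted p = 0.561). The others that fell were Fgl1, a fibrinogen-like secreted protein (-1.43, adjusted p = 0.00024), Vsig4, a macrophage receptor for C3 fragments (-0.94, 0.0145), Proz, protein Z (-0.57, 0.00264), and the proteases Tmprss6 (-0.74, 0.00237), Hgfac (-0.53, 0.0148), Habp2 (-0.53, 0.0434) and Hpn (-0.48, 0.0151). Under the 17 alternatives the call was lost in 11 for Habp2 (adjusted p up to 0.151), in 7 for Serpina1 (up to 0.141), in 5 each for Hgfac and Hpn (up to 0.0701 and 0.232), in 2 for Vsig4 and in 1 for Anxa2.

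Some other pathway genes were not called. Estimates were -0.15 ± 0.47 for F8, the factor VIII gene, 0.32 ± 0.51 for Vwf (von Willebrand factor), 0.28 ± 0.43 for Thbd (thrombomodulin), -0.43 ± 0.39 for Tfpi (tissue factor pathway inhibitor) and 0.32 ± 0.51 for Plat (tissue plasminogen activator). Their adjusted p-values ran from 0.605 for Tfpi to 0.909 for F8. F3 (tissue factor) and Plau (urokinase) did not pass the filter.

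**Figure D4:**
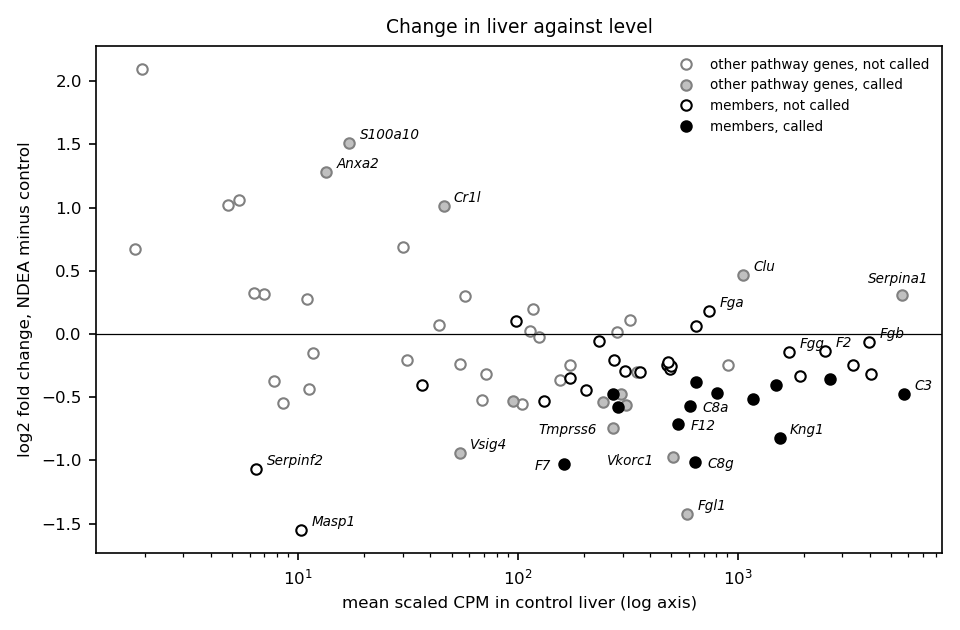
Log2 fold change in liver, NDEA minus control, against the mean scaled CPM in control liver (log axis) for the 36 tested members (black) and 41 other tested pathway genes (grey); filled points passed an adjusted p of 0.05. Filled members lie below 0 between F7, at 162 CPM, and C3, at 5701 CPM.

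Values of other gene groups stood beside the falls in liver. Over all 9668 tested genes, 3.74% were called lower and 2.87% higher. Of 20 tested genes for other proteins that hepatocytes secrete, 11 were lower and 3 higher, with a median of -0.30; Alb was at -0.25 ± 0.07 (adjusted p = 0.0325), and Ttr (transthyretin), Apoa1 and Orm1 were the 3 that rose. Of 10 hepatocyte markers, some on that list too, 6 were lower and 1 higher, and their summed level ran from 99186 to 126003 CPM in controls and from 88488 to 105870.0 after NDEA. Among 12 tested hepatocyte transcription factor genes, Hnf4a (-0.75 ± 0.13, adjusted p = 0.000429) and Onecut1 (-1.04 ± 0.22, adjusted p = 0.00378) were lower and none was higher. Of 7 stellate cell and fibroblast markers, Dcn and Col3a1 were higher, and the summed level of the list ran from 236 to 331 CPM in controls and from 411 to 495 after NDEA. Of 11 Kupffer cell and macrophage markers, Marco was higher, and the sums were 729.7 to 839.6 and 801 to 964 CPM. None of 6 endothelial markers was called. The 2 tested cholangiocyte markers, Epcam (1.25 ± 0.41, adjusted p = 0.0731) and Sox9 (2.83 ± 1.09, adjusted p = 0.144), were not called either, but both lay higher in every NDEA library than in any control. The summed level of the 7 listed ran from 7.74 to 17.9 CPM in controls and from 24.3 to 48.1 after NDEA. Krt19, a defining cholangiocyte gene, had no count in liver or marrow, and whether its 3' end was captured was not tested. The part of any of these in the falls of the members was not tested.

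In bone marrow the members were scarce. They took 0.181, 0.123, 0.0608 and 0.0873% of counts in controls 1 to 4, and 0.0617, 0.0738, 0.0603 and 0.0457% in NDEA libraries 1 to 4. No count was found in any marrow library for 21 members, among them F2, F9, Proc and the 3 fibrinogen genes, which over the 8 libraries allows up to 0.0785 CPM each. Only 10 members passed the filter, and 15 had a mean of at least 1 CPM in 1 of the groups. None of the 10 was called, and none of all 9239 tested marrow genes was (0%; limma-voom). At an unadjusted p under 0.05 there were 3 members, C6, Cfd and F5, against 14.5% of all tested genes. The estimate was below 0 for 8 of the 10 (55.7% of all tested genes), with a median of -0.63 against -0.10 over all tested marrow genes. Mitochondrially encoded mRNAs, whose share can move with RNA quality, took 5.72 to 11.6% of counts in control marrow and 7.41 to 13.9% after NDEA; all 12 tested had estimates above 0 (median 0.51) and none was called. NDEA library 4 had the highest share and the fewest genes detected, 9101. The part of these in the marrow estimates was not tested.

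Cfd was the most abundant member in marrow. It read 1151, 703, 330.0 and 534 CPM in controls 1 to 4 and 326, 354, 347 and 317 in NDEA libraries 1 to 4. The NDEA libraries lay close together near the lowest control, control 3 (-0.87 ± 0.29, adjusted p = 0.252). Of fat-cell genes, Adipoq, the adiponectin gene, had an estimate of 0.82 and Plin1, a lipid droplet gene, one of -0.17, neither called. Which marrow cells made Cfd was not tested. C6 read 88.4, 55.9, 10.2 and 24.1 in controls and 12.5, 14.8, 2.70 and 3.16 after NDEA. Its controls spread widely and control 3 overlapped the NDEA libraries (-2.24 ± 0.75, adjusted p = 0.252). Without marrow control 3, an alternative in which 323 genes were called, C6 and Cfd were called lower, with log2 fold changes of -2.76 and -1.18 (adjusted p = 0.0233 and 0.0168).

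F5 read 90.5, 129, 131 and 94.0 CPM in marrow controls and 82.7, 85.9, 75.6 and 40.9 after NDEA. The groups did not overlap, as in 3.03% of tested marrow genes in that direction (2.57% in the other, with 0 members), and the call was missed (-0.69 ± 0.27, adjusted p = 0.279). C3 read 119, 97.1, 83.9 and 99.0 in controls and 91.8, 127, 37.8 and 39.3 after NDEA, with 2 NDEA libraries near the controls and 2 far below (-0.59 ± 0.34, adjusted p = 0.407). Serping1 read 41.1, 92.7, 40.1 and 44.0 and 39.6, 62.6, 39.3 and 11.9, with control 2 apart from the rest (-0.67 ± 0.42, adjusted p = 0.448). C1r read 105, 68.0, 39.4 and 28.2 and 40.8, 41.1, 59.4 and 37.6, and the groups overlapped (-0.19 ± 0.34, adjusted p = 0.815).

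The other members with a mean of at least 1 CPM in a marrow group were low, and their groups overlapped except for F10 and Kng1. Pros1 read 14.7, 11.8, 2.66 and 10.9 CPM in controls and 6.03, 8.89, 4.78 and 0 after NDEA. Klkb1 read 3.77, 6.87, 5.56 and 3.04 and 4.40, 6.88, 14.1 and 21.4, and was the member with the highest estimate (1.06 ± 0.69, adjusted p = 0.463). C1s read 1.68, 12.7, 2.42 and 13.9 and 5.79, 2.85, 5.20 and 14.6. These 3 had no call. F7 read 9.22, 2.64, 11.6 and 0.894 and 7.88, 1.01, 10.6 and 2.97, and C8g 1.68, 1.06, 0.725 and 3.40 and 3.48, 0.503, 10.2 and 0. C5 read 0, 0, 2.66 and 0.179 and 0, 0.168, 4.36 and 0, and F12 0.838, 5.29, 1.69 and 1.97 and 3.01, 0.335, 1.25 and 0.989. In these 4 no group stood apart. F10 read 7.12, 1.41, 1.69 and 2.50 and 1.39, 0, 0.416 and 0.198, a total of 46 counts in controls and 9 after NDEA. Kng1 had 7, 22, 8 and 19 counts in controls 1 to 4 and 0, 0, 2 and 0 in NDEA libraries 1 to 4. Both lay lower in NDEA marrow without overlap, on too few counts to pass the filter there.

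**Figure D5:**
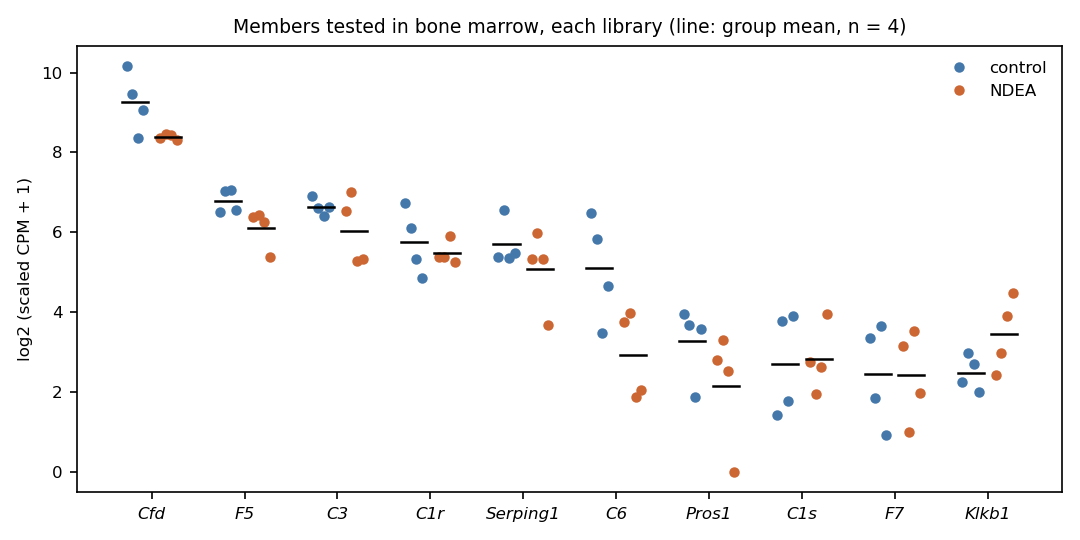
Level of the 10 members tested in marrow, as log2 of scaled CPM plus 1, in each control and NDEA library; lines are group means (n = 4). Cfd is the most abundant, and F5 is the member whose groups do not overlap.

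Markers of other cell types were also measured in marrow, and none of those named here was called. The summed level of 10 stellate cell and fibroblast markers ran from 2343 to 5502 CPM in control marrow and from 1216 to 3135 after NDEA, and all 6 tested markers had estimates below 0 although the sums overlapped. The summed level of 9 fat and stromal markers, which share Col1a1 and Dcn with the former list, ran from 4142 to 8849 and from 3223 to 5854, also with overlap, and 6 of the 9 estimates were below 0. The summed level of the skeletal muscle markers did not overlap, with 131 to 512 CPM in control marrow and 56.1 to 71.8 after NDEA. All 6 tested muscle markers had estimates below 0, among them Acta1 (-2.65) and Tnnc2 (-3.32). In 4 of these 6 all NDEA libraries lay below all controls (3.03% of all tested marrow genes). The part of any of these markers in the marrow estimates was not tested.

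A test of whether the NDEA effect differed between tissues called none of the 36 members that passed its filter, at an adjusted p under 0.05. Of these 36, 26 had not passed the filter in marrow and 16 had no count in any marrow library, among them F2, F9, C8a and the fibrinogen genes; for those 16 there was no marrow effect to compare, and the lack of a call says nothing. Over all 11261 genes tested, 2.07% were called with the effect higher in liver and 0.213% with it lower, and the median difference was 0.32. Kng1 came closest, with a difference of 3.61 ± 0.98 (adjusted p = 0.0515), which rests on the few marrow counts given above and passed 0.05 in 9 of 24 alternatives. For F7 the difference was -1.08 ± 0.92 (adjusted p = 0.590) and for C3 0.17 ± 0.33 (adjusted p = 0.856). The standard error of the difference was at least 0.5 for 31 of the 36 members, against a median log2 fold change of -0.35 in liver. Of the other pathway genes, the effect was higher in liver for Cr1l, Cd93, Anxa2 and S100a10 (1.30, 1.53, 1.83 and 1.95; adjusted p = 0.0388, 0.0419, 0.0234 and 0.0112), and lower in liver for Hpn (-1.64, adjusted p = 0.0479). Of these, S100a10 was called in each of 24 alternatives, while the call was lost in 4 for Anxa2, 15 for Cr1l, 16 for Cd93 and 17 for Hpn (adjusted p up to 0.0812, 0.125, 0.136 and 0.186).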

How the data were processed

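The authors deposited a table of read counts per gene for 16 libraries from QuantSeq 3' mRNA-Seq FWD kits. STAR and DESeq2 are named in the submitters' processing notes; for their versions, the counter, its strand setting, the build and the gene models, the entry is: not given in the sources used here. The deposited count table is broken in places: 12 records run over 2 lines and 15579 lines are held as one quoted cell. These were rejoined, and the group totals that the table carries for 16313 records equalled the sums of the counts with 0 exceptions. As deposited, the broken columns did not read as plain counts, and on that ground the quasi-likelihood test listed as an alternative was not run. The rejoined records did hold whole counts, so this alternative remains untried.

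A gene was kept in a tissue if 4 or more libraries had the CPM that 10 counts give in the library of median size, and if its counts summed to 15 or more. Scaling used trimmed means of M values (trims 0.3 and 0.05). NDEA was compared with control by limma-voom (limma 3.58.1, R 4.3.3; voom adds 0.5 to each count), per tissue, with treatment as the sole term. The tissue difference was the treatment-by-tissue term over all 16 libraries. P-values were adjusted by Benjamini-Hochberg over all genes tested, with a call at 0.05, and the procedure was tested on simulated data. A fold change is NDEA minus control on the log2 scale. Intervals for a count of 0 (3 counts over the 8 libraries of a tissue) cover counting error only.

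The members and the lists were chosen with earlier results of these data known. All 42 members are accounted for. Values in every library are given for each member called in liver, the 3 fibrinogen genes, C3, F2, Serpinc1, Plg, Serping1, and members at a mean of at least 1 CPM in a marrow group; of the other pathway genes each one called is named, and 12 more were followed whatever their values, some of which are not reported here. Cfhr2, Fcn1, Fcn2, Cd59b, Hrg, Kng2, Kng1l1 and Kng2l1 were not matched by name. Alternatives changed the scaling, the filter, the test, the libraries in the fit and the replicate number as a block, or left out a library. Mitochondrially encoded mRNAs took 8.83 to 10.4% of liver counts and 5.72 to 13.9% of marrow counts.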

Additional observations from a re-analysis of the deposited data

Results flagged for a closer look

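In 92 groups of 4 libraries, 6 held a library whose gap to its nearest neighbour was, as a share of the group's range, above Dixon's 95% critical value; chance flags about 1 in 20 groups. In liver these were Plg in control 1 (5531 CPM, the others 3350.0 to 3695), C8b in NDEA 1 (261 CPM, the others 224 to 229.8), Klkb1 in NDEA 1 (122 CPM, the others 78.6 to 85.0) and Cfi in NDEA 4 (741 CPM, the others 648 to 655). In marrow they were C1r in NDEA 3 (59.4 CPM, the others 37.6 to 41.1) and Serping1 in control 2 (92.7 CPM, the others 40.1 to 44.0).

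The NDEA effect differed between liver and marrow, by the treatment-by-tissue term of limma-voom, for 5 other pathway genes. No member was called, but 26 of the 36 members in that fit had not passed the marrow filter and 16 had no marrow count, so for those 16 there was no marrow effect to compare. The log2 difference, liver minus marrow, was 1.30 for Cr1l, 1.53 for Cd93, 1.83 for Anxa2, 1.95 for S100a10 and -1.64 for Hpn. The call was lost in 15, 16, 4, 0 and 17 of 24 alternatives, in that order.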

How the results depend on the processing

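The liver falls were called in 7 to 18 of the members under the 17 alternatives, and no member was called higher in any. The main fit called 13 members and 362 of all 9668 tested genes lower. With all 16 libraries in one fit 7 members and 225 of 11261 genes were called lower. Leaving out 1 library gave 10 to 18 members and 259 to 368 genes. There were 18 members and 368 of 9553 genes without control 2, and 18 members and 422 of 9668 genes with the replicate block. C1r, F5 and Serpinc1 depended most on the setting. Fgb turned to 0.054 with library totals alone and to 0.058 with totals less mitochondrially encoded genes.

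In marrow 0 genes were called, with 2 genes without a filter, 69 genes and 1 member in one fit of 16, and 289 genes and 2 members with the replicate block. Leaving out 1 library gave 0 to 323 genes and 0 to 2 members; both upper values came without control 3. The estimate of C1s turned to 0.19 with limma-trend and ran from -0.83 to 0.12 when 1 library was left out (above 0 without control 2, control 4 or NDEA 2). That of F7 turned to -0.0099 with limma-trend and -0.12 with the replicate block, and ran from -0.59 to 0.99 (below 0 without control 4, NDEA 1 or NDEA 3). That of C1r ran from -0.52 to 0.048, the latter without control 1.

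For the tissue difference, leaving out 1 library gave 107 to 547 genes, and 162 and 171 genes without liver control 3 and marrow control 2. Members called ran from 0 to 2, and 1 (Kng1) was called with library totals alone, totals less mitochondrially encoded genes, the 5 CPM filter, limma-trend and the replicate block. The difference for C3 turned to -0.083 with sample weights and ran from -0.11 to 0.54 when 1 library was left out (below 0 without marrow NDEA 3 or 4). Those for Serping1 (-0.20 to 0.72) and F5 (-0.00089 to 0.42) were lowest without marrow NDEA 4. The cause of these changes was not tested.

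Same-numbered libraries of a tissue correlated at -0.0080 to 0.0624 in their deviations from the group means, so the numbers were not taken to pair the libraries. The quasi-likelihood count test was not run, because the table as deposited, before its lines were rejoined, did not read as plain counts.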
